A study of Mus musculus with 5 samples.

Results

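The Hox genes encode homeodomain transcription factors that give cells along the body axis their positional identity. In mouse they lie in 4 clusters, HoxA to HoxD, and each gene carries a position number that runs from 1 at the anterior end of a cluster to 13 at the posterior end. The 38 genes described here are all those with a non-control probe whose symbol is Hox, a cluster letter and a position number, out of 20053 genes named on the array. The annotation holds 39 such genes, and the remaining one, Hoxc11, had no probe. A total of 49 of 41174 non-control probes met the rule, and the rule uses names alone.

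Cells came from the papilla, where the collecting ducts of the kidney open, of H2B-GFP mice that had been given doxycycline before birth and were then left to about 2 to 3 months of age. Cells that divided little over that time keep the GFP-tagged histone and are called label-retaining. Live cells of the dispersed tissue were sorted into GFP+ (label-retaining) and GFP- cells, and the 5 biological replicates have 1 two-colour array each, with GFP+ cells labelled with Cy5, GFP- cells with Cy3 and no dye swap. Both populations of a replicate came from animals of the same H2B-GFP strain, age and doxycycline treatment. The titles of all 5 replicates name the tissue as control kidney papilla. Whether a replicate was 1 animal or a pool, which promoter drives the transgene and on which embryonic days doxycycline was given are not stated in the sources used here. The cDNA was amplified by global PCR (SuperAmp) before labelling.

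The direction of every ratio below, GFP+ over GFP-, is likely and not settled. The deposited tables hold a first and a second intensity without naming the dyes, the ratio is the second over the first, and the labels of all 5 replicates put GFP- before GFP+ in their descriptions, as the deposited names of replicates 3 to 5 also do. If the order is the opposite, every sign turns. The labels give replicate 1 the same dyes as the others, but its intensities carry no dye name either, so the direction of replicate 1 alone may also be the opposite; this was not settled by the files. Log2 ratios across all genes correlated weakly between replicates 2 to 5 (Pearson's r between 0.05 and 0.20 over pairs of arrays), and replicate 1 correlated below 0 with each of them (r between -0.15 and -0.06). Patterns that rest on replicate 1 are therefore given with and without it, and the counts of genes also with its sign turned.

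In the adult kidney, the Hox genes a cell expresses can reflect its embryonic origin. Hoxb7 is active in the ureteric bud and in the collecting duct that grows from it, and its regulatory region is widely used to drive transgenes there. The Hox11 genes (Hoxa11, Hoxc11, Hoxd11) act in the nephron-forming mesenchyme together with Eya1, Six2 and Pax2, and the Hox10 genes (Hoxa10, Hoxc10, Hoxd10) act in the stroma of the developing kidney. Polycomb proteins keep Hox genes silent outside their domains, trithorax proteins keep them active, and TALE proteins (Pbx, Meis, Pknox) bind DNA together with Hox proteins.

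Promoters of 4 members are shown because their ratios turn between replicate 1 and the other arrays in opposite directions: Hoxa9 and Hoxd4 were higher in GFP+ cells on replicates 2 to 5, and Hoxa7 and Hoxd13 were lower. Hoxa7 and Hoxa9 are neighbours in the HoxA cluster. Each sequence is RefSeq's, build GRCm38.p6, from 250 bases before to 50 bases after the gene's start, written 5′ to 3′ on the gene's strand. Capitals mark matches on either strand to TGATNNAT (a motif bound by Pbx and Hox proteins together), TTTAT (part of the site of posterior Hox and Cdx proteins) and CCAAT, and matches may overlap each other. Hoxa9 lies at chr6:52227321-52227620 (minus strand), Hoxd4 at chr2:74721728-74722027 (plus strand), Hoxa7 at chr6:52218524-52218823 (minus strand) and Hoxd13 at chr2:74667975-74668274 (plus strand).
Hoxa9: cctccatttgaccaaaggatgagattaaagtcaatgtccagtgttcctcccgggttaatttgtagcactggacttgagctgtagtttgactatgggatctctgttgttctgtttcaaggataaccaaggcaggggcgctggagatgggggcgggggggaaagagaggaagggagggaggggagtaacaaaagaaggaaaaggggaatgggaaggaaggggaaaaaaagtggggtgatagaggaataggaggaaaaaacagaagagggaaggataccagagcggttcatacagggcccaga
Hoxd4: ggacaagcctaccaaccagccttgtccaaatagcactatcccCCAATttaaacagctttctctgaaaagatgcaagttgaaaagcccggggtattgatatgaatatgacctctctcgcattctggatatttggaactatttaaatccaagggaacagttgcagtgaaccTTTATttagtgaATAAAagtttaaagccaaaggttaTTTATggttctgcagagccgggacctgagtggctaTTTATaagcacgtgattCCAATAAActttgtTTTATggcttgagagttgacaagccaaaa
Hoxa7: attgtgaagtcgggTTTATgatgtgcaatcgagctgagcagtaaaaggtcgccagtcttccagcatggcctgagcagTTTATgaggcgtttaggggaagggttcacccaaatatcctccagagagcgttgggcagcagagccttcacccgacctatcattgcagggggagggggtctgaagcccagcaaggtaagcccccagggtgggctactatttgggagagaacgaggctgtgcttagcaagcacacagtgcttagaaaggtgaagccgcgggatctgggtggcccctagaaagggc
Hoxd13: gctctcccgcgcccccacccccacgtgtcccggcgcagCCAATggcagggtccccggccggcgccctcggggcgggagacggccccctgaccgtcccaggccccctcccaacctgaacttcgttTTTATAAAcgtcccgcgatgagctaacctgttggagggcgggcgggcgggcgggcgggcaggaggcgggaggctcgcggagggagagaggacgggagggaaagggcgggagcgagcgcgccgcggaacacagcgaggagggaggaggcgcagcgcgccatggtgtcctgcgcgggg

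The window of Hoxd4 held 6 TTTAT and 2 CCAAT matches, that of Hoxa7 held 2 TTTAT matches, that of Hoxd13 held 2 TTTAT and 1 CCAAT match, and that of Hoxa9 held none of the 3 motifs. GC content was 39.7% for Hoxd4, 49.7% for Hoxa9, 55.7% for Hoxa7 and 74.3% for Hoxd13. Of all 32851 promoters in the table, 8.85% held TGATNNAT, 40.0% held TTTAT and 37.4% held CCAAT. Of 24 promoters of 22 Hox genes in the same table, 4 held TGATNNAT, 9 held TTTAT and 15 held CCAAT. Matches to TTTAT were thus present in a promoter of a gene that was higher on replicates 2 to 5 (Hoxd4) and in both of those that were lower (Hoxa7 and Hoxd13).

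Most Hox genes gave signal in both populations of adult papilla cells. Above background means here an intensity at least 3 times that of the negative control probe in the same channel and array. By this measure 32, 34, 32, 32 and 34 of 38 Hox genes were above background in GFP+ cells on replicates 1 to 5, against 34, 31, 32, 31 and 31 in GFP- cells. Over all 20053 genes the share above background was 81.4%, 81.3%, 74.9%, 82.3% and 85.3% in GFP+ cells, against 86.8%, 73.4%, 74.0%, 72.2% and 73.4% in GFP- cells, and for Hox genes it was between 84.2% and 89.5% in GFP+ cells and between 81.6% and 89.5% in GFP- cells. The share of Hox genes was the higher of the pair on every array and in both channels, a difference that was not tested. A signal in sorted cells does not tell apart a change in the number of cells that carry a transcript from a change in transcript per cell.

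In both channels on all 5 arrays, 25 of 38 Hox genes (65.8%) were above background, beside 56.6% of all genes (11354 of 20053), and on at least 4 arrays 28 were. By cluster the 25 were 8 of 11 genes of HoxA, 7 of 10 of HoxB, 5 of 8 measured in HoxC and 5 of 9 in HoxD. By position they were 8 of 12 anterior genes (positions 1 to 4), 6 of 11 central genes (5 to 8) and 11 of 15 measured posterior genes (9 to 13). Posterior members such as Hoxa13, Hoxb13, Hoxc12 and Hoxd13 were thus above background throughout. The dim members were Hoxa11, Hoxb1, Hoxc8, Hoxc13, Hoxd1 and Hoxd11, each above background in GFP- cells on at most 2 arrays. Hoxc8 and Hoxd11 were in no GFP+ channel and in 1 GFP- channel, and were not tested.

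**Figure D1:**
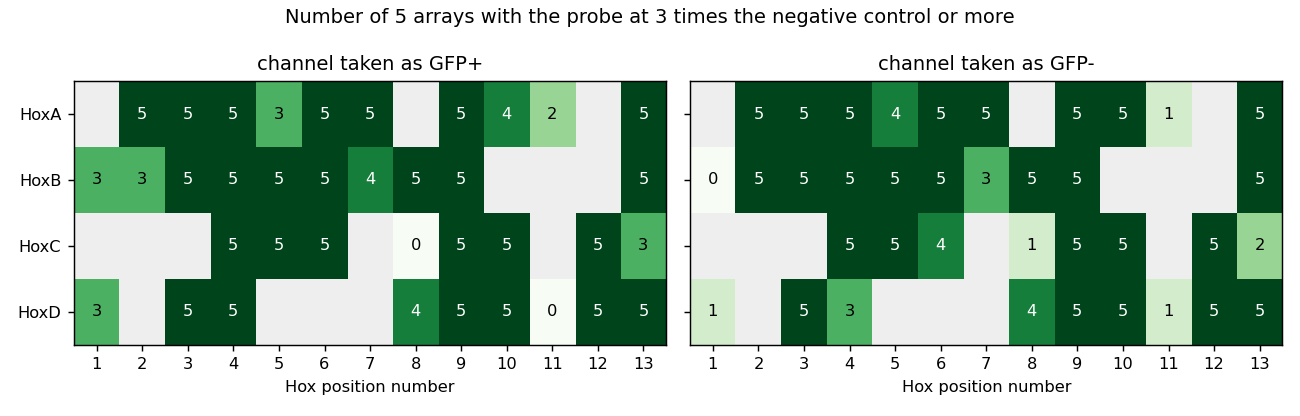
Number of the 5 arrays on which each Hox gene's probe was at least 3 times the negative control, in the channel taken as GFP+ (left) and as GFP- (right). Rows are clusters and columns are position numbers; grey cells have no gene, have no probe (Hoxc11) or are not shown. Most cells read 5 in both channels, and Hoxc8 and Hoxd11 read 0 in GFP+ and 1 in GFP-.

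No Hox gene passed limma's test of GFP+ against GFP- cells. Limma called 0 of 36 tested Hox genes, and 0 of all 17425 genes (0%), with an adjusted p threshold of 0.05. The lowest adjusted p of a Hox gene was 0.825 (limma). At an unadjusted p under 0.05 there was 1 Hox gene of 36, Hoxb3, beside 4.94% of all genes (3.19% of all genes were higher in GFP+ cells at this level, as Hoxb3 was). The mean log2 ratio was above 0 for 23 of 36 Hox genes (63.9%), beside 49.8% of all genes, and below 0 for 13. The median of these means was 0.27, beside -0.0029 over all genes, and the Hox medians of single arrays were 0.010, 0.13, 0.46, 0.59 and -0.46 on replicates 1 to 5 (SD 0.41), so that their spread was larger than the median itself.

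The spread between arrays was larger than the mean in 32 of 36 Hox genes. The median SD over arrays was 1.96 log2 units for Hox genes and 1.45 for all genes, and for single Hox genes it ran between 0.20 (Hoxb1) and 5.70 (Hoxd8). A mean of at least 2-fold in either direction was reached by 15 of 36 Hox genes (41.7%), beside 25.9% of all genes. On single arrays 20, 21, 18 and 22 of 36 Hox genes differed at least 2-fold on replicates 1 to 4, and 18 of 35 on replicate 5, beside 49.7%, 47.9%, 42.0%, 48.1% and 48.2% of all genes. Differences of this size within an array were thus common among all genes.

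**Figure D2:**
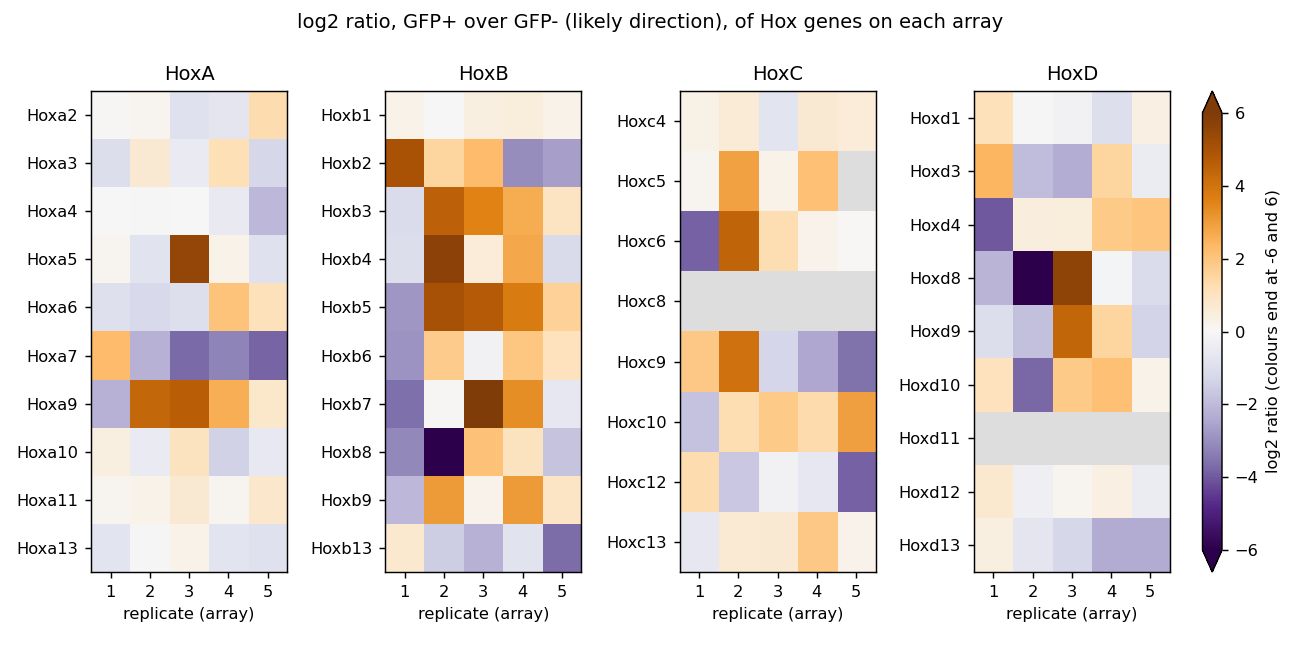
Log2 ratio, GFP+ over GFP-, of the Hox genes reported here (rows, by cluster and position) on each of the 5 arrays (columns). Orange is higher in GFP+ and purple is lower; colours end at -6 and 6, and grey marks Hoxc8 and Hoxd11, which were not tested, and Hoxc5 on replicate 5, whose spot the authors' software had marked. Hoxb3 to Hoxb9 are purple on replicate 1 and mostly orange on replicates 2 to 4.

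A ratio of 1 sign on all 5 arrays was seen in 3 of 35 Hox genes with 5 values, beside 7.62% of all genes. Of these, 2 were above 0 (4.71% of all genes) and 1, Hoxa4, was below 0 (2.91% of all genes). Hoxa4 and Hoxa11 are described in turn.

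Hoxa4, an anterior HoxA gene, was the 1 member below 0 on all 5 arrays. Its intensities were 374, 778, 1309, 454 and 877 in GFP+ cells on replicates 1 to 5, against 485, 735, 1625, 644 and 3252 in GFP- cells. The ratios were -0.03, -0.08, -0.03, -0.53 and -2.05 (mean -0.54 ± 0.87, SD, n = 5), so that 3 of the 5 were close to 0 and replicate 5 gave most of the mean. Before normalization the GFP+ intensity on replicate 2 was the higher of the pair. The second Hoxa4 probe gave the opposite sign on replicates 2, 4 and 5, with a mean of 0.34.

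Hoxa11 had ratios of 0.10, 0.27, 0.67, 0.11 and 0.79 (mean 0.39 ± 0.32, SD, n = 5), but its signal was at the edge of detection. Its intensities were 48.6, 89.1, 123, 59.4 and 268 in GFP+ cells, against 58.1, 43.0, 51.5, 38.2 and 77.7 in GFP- cells, above background on 2 and 1 of 5 arrays. Before normalization the GFP+ intensity on replicate 1 was the lower of the pair. Of the other Hox11 genes, Hoxd11 had 18.0, 24.9, 34.1, 58.1 and 36.1 in GFP+ cells, against 29.0, 46.9, 305, 31.0 and 30.8 in GFP- cells. Its single value above background was that of GFP- cells on replicate 3. The Hox11 genes of the nephron-forming mesenchyme that were measured were therefore near or under the detection limit in both populations on most arrays.

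More often than 1 sign on all arrays, Hox genes had 1 sign on replicates 2 to 5 and the other on replicate 1. This was so for 12 of 35 Hox genes (34.3%), beside 17.9% of all genes. Of these, 8 were lower on replicate 1 and higher on the others (22.9%, beside 8.29% of all genes): Hoxa9, Hoxb3, Hoxb5, Hoxb9, Hoxc6, Hoxc10, Hoxc13 and Hoxd4. The other 4, higher on replicate 1 and lower on the others (11.4%, beside 9.65% of all genes), were Hoxa7, Hoxb13, Hoxc12 and Hoxd13. Before normalization the GFP+ intensity of Hoxd13 on replicate 1 was the lower of the pair (2053 against 2236), and that of Hoxb9 on replicate 3 was level with the GFP- intensity, so these 2 signs rest on the normalization. That replicate 1 stands apart was known from earlier results of these data, so these counts are a description, and neighbouring genes of a cluster are not independent of each other.

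Within HoxB, the 7 contiguous genes Hoxb3 to Hoxb9 formed the clearest block, chosen after its values were seen. On replicate 1 all 7 were lower in GFP+ cells by the brightest probe of each gene, with a median log2 ratio of -2.81. The second Hoxb8 probe was above 0 on that array (1.68). On replicates 2 to 5, 6, 6, 7 and 4 of the 7 were higher in GFP+ cells, with medians of 3.01, 2.10, 2.75 and 0.91. Over the 10 genes of HoxB the medians were -1.58, 1.67, 1.31, 2.28 and -0.18 on replicates 1 to 5, beside 0.05, -0.05, 0.27, 0.11 and -0.58 for the 11 genes of HoxA. The medians of HoxC were 0.13, 1.25, 0.25, 0.66 and 0.13, and those of HoxD were 0.58, -1.31, 0.32, 0.93 and -0.46, so HoxB alone had a median below 0 on replicate 1.

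Hoxb3, the 1 Hox gene at an unadjusted p under 0.05, had intensities of 3098, 30584, 28263, 14719 and 1454 in GFP+ cells, against 8365, 1069, 2950.2, 1596 and 673 in GFP- cells. GFP+ cells were lower on replicate 1 and higher on the other 4 arrays, with ratios of -1.12, 4.51, 3.59, 2.63 and 0.94. The mean was 2.11 ± 2.24 (SD, n = 5, adjusted p 0.825 by limma), and 2.92 ± 1.53 over replicates 2 to 5 (SD, n = 4).

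Hoxb5, its neighbour but one, which acts in neural crest and lung development, had intensities of 515, 9729, 84082, 21997 and 4296 in GFP+ cells, against 5709.7, 213, 3965, 1055 and 1104 in GFP- cells. The ratios were -2.81, 5.03, 4.72, 3.78 and 1.63, the same order of signs as Hoxb3. The mean of 2.47 ± 3.24 (SD, n = 5) became 3.79 ± 1.53 over replicates 2 to 5 (SD, n = 4). Hoxb4, a regulator of blood stem cells that lies between them, was higher on replicates 2, 3 and 4 and lower on 1 and 5. Its intensities were 3456, 105353, 11847, 28643 and 2543 in GFP+ cells, against 8445, 1659, 10435, 3071 and 4319 in GFP- cells, and its ratios were -0.997, 5.70, 0.52, 2.75 and -1.15 (mean 1.37 ± 2.89, SD, n = 5). Without replicate 2 the mean of Hoxb4 was 0.28.

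Hoxb7, the collecting duct gene of the block, was bright on some arrays and near background on others. Its intensities were 404, 109.8, 113865, 38462 and 69.6 in GFP+ cells, against 8088, 63.6, 2047, 2835 and 93.3 in GFP- cells. On replicates 2 and 5 both channels were near background, so that the ratios of -3.63, 0.09, 6.10, 3.32 and -0.62 (mean 1.05 ± 3.75, SD, n = 5) rest on replicates 1, 3 and 4. On those 3 arrays the sign was negative on replicate 1 and positive on 3 and 4.

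Hoxb6 and Hoxb9 were bright in both populations on every array. Hoxb6 had 14786, 50066, 185218, 59069 and 30645 in GFP+ cells, against 100162, 12273, 246992, 14951 and 10077 in GFP- cells, and ratios of -2.89, 1.83, -0.21, 1.93 and 1.05 (mean 0.34 ± 2.00, SD, n = 5). Hoxb9 had 30815, 186814, 212036, 78593 and 30560.5 in GFP+ cells, against 110082, 21073, 212256, 8928 and 11137 in GFP- cells, and ratios of -2.03, 3.01, 0.21, 3.05 and 0.91 (mean 1.03 ± 2.13, SD, n = 5). The GFP+ intensity of both was lower than the GFP- intensity on replicate 1 and clearly higher on replicates 2, 4 and 5, and on replicate 3 the channels were close. By its brightest probe Hoxb8 departed from its neighbours, with 2689, 1301, 1078, 8776 and 121 in GFP+ cells, against 26448, 70404, 235, 2964 and 371 in GFP- cells. Its ratios were -3.12, -5.97, 2.10, 1.01 and -1.74 (mean -1.54 ± 3.24, SD, n = 5), lower in GFP+ cells on replicates 1, 2 and 5, and without replicate 2 the mean was -0.44.

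**Figure D3:**
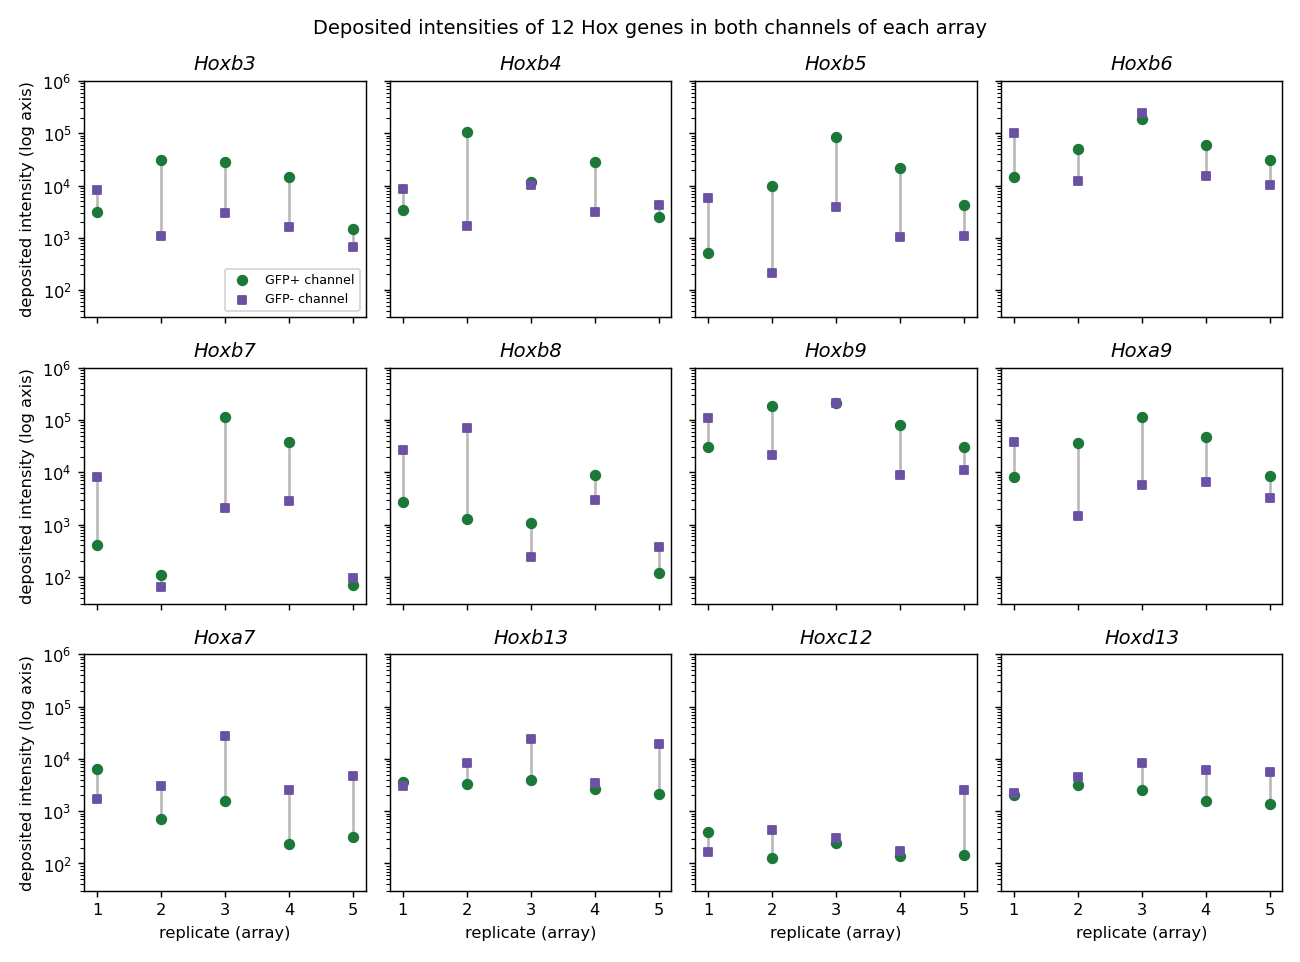
Deposited intensities (log axis) of 12 Hox genes on the 5 arrays, with the GFP+ channel as green circles and the GFP- channel as purple squares; a grey line joins both channels of an array. For Hoxb3, Hoxb5, Hoxb9 and Hoxa9 the circle lies below the square on replicate 1; for Hoxa7 and Hoxb13 it lies above it on that replicate and below it on replicates 2 to 5.

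Hoxb13, the posterior end of HoxB, lies apart from Hoxb9 in the cluster and went the other way. Its intensities were 3567, 3370.4, 3949, 2703 and 2100.0 in GFP+ cells, against 2977, 8243, 23624, 3481 and 19278 in GFP- cells. GFP+ values stayed within a narrow range, between 2100.0 and 3949, while GFP- values ran between 2977 and 23624. The ratios were 0.70, -1.53, -2.22, -0.80 and -3.70 (mean -1.51 ± 1.64, SD, n = 5; -2.06 ± 1.24 over replicates 2 to 5, SD, n = 4).

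In HoxA, the neighbours Hoxa7 and Hoxa9 had opposite ratios on each of the 5 arrays. Hoxa9, which supports the self-renewal of blood progenitors, had intensities of 8100.0, 36317, 113747, 46241 and 8299.5 in GFP+ cells, against 38159.7, 1433, 5718, 6486 and 3249.7 in GFP- cells, and ratios of -2.23, 4.35, 4.62, 2.61 and 0.84 (mean 2.04 ± 2.83, SD, n = 5). Hoxa7 had intensities of 6278, 720.4, 1584, 240.0 and 323 in GFP+ cells, against 1733, 3079.6, 27553, 2514 and 4715 in GFP- cells, and ratios of 2.27, -2.21, -3.70, -3.22 and -3.83 (mean -2.14 ± 2.55, SD, n = 5). Over replicates 2 to 5 the means were 3.10 ± 1.75 for Hoxa9 and -3.24 ± 0.73 for Hoxa7 (SD, n = 4 each), so that the 4 values of each lay wholly on opposite sides of 0.

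The other HoxA genes had no such order. Hoxa2 had ratios of 0.05, 0.17, -0.88, -0.72 and 1.30, Hoxa3 of -1.02, 0.68, -0.48, 1.18 and -1.25 and Hoxa6 of -0.89, -1.21, -0.96, 2.05 and 1.08, each of mixed sign with a mean close to 0 (-0.02 ± 0.87, -0.18 ± 1.06 and 0.01 ± 1.46, SD, n = 5 each). Hoxa10, a Hox10 gene of the kidney stroma, had 2018, 133, 871, 67.8 and 139 in GFP+ cells, against 2186, 151, 459, 173 and 146 in GFP- cells, and ratios of 0.42, -0.50, 0.99, -1.38 and -0.58 (mean -0.21 ± 0.93, SD, n = 5). Hoxa13, which is needed for limb ends and the urogenital tract, was bright and nearly even, with 7143, 14010.1, 18216, 9354 and 12155 in GFP+ cells, against 13267, 12216, 19013, 12005 and 14917 in GFP- cells. Its ratios of -0.77, -0.05, 0.27, -0.77 and -0.87 (mean -0.44 ± 0.51, SD, n = 5) never reached a 2-fold difference. Hoxa5 ranged in GFP+ cells between 37.3 and 65294 and in GFP- cells between 35.3 and 1757, and exceeded a 2-fold difference on replicate 3 alone (log2 ratio 5.52).

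In HoxC, Hoxc10, a Hox10 gene, had intensities of 749, 5435, 3412, 779.9 and 37656 in GFP+ cells, against 3939, 1928, 1174, 259 and 3284 in GFP- cells. It was lower in GFP+ cells on replicate 1 and higher on the other 4 arrays, with ratios of -1.78, 1.25, 1.84, 1.34 and 2.93 (mean 1.11 ± 1.75, SD, n = 5; 1.84 ± 0.77 over replicates 2 to 5, SD, n = 4). A second Hoxc10 probe did not show this, with a mean of -1.94 and a ratio of -8.23 on replicate 4.

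Hoxc6 had the same order of signs, with ratios of -3.85, 4.43, 1.26, 0.20 and 0.03 (mean 0.42 ± 2.97, SD, n = 5), and those of replicates 4 and 5 were close to 0. Hoxc12, near the posterior end, went the other way, with ratios of 1.30, -1.67, -0.22, -0.65 and -3.87 (mean -1.02 ± 1.91, SD, n = 5; -0.31 without replicate 5). Hoxc9 was higher in GFP+ cells on replicates 1 and 2 and lower on 3 to 5, with 37348, 67797, 1016, 642 and 667 in GFP+ cells, against 9929, 3405, 3221, 3354 and 6948 in GFP- cells, and ratios of 1.88, 4.06, -1.30, -2.48 and -3.57 (mean -0.28 ± 3.17, SD, n = 5). Hoxc4 had ratios of 0.30, 0.60, -0.78, 0.66 and 0.52 (mean 0.26 ± 0.60, SD, n = 5), none of which reached a 2-fold difference. Before normalization its intensities on replicate 3 were 914 in GFP+ cells, against 1931 in GFP- cells. Hoxc5 had 4 ratios, 0.13, 2.89, 0.25 and 2.12 on replicates 1 to 4 (mean 1.35 ± 1.38, SD, n = 4), all above 0. Before normalization its GFP+ intensity was the lower of the pair on replicates 1 (552 against 659) and 3 (2087 against 2236). Its spot on replicate 5 was left out, with 977 in GFP+ cells against 1523 in GFP- cells. Hoxc13 was dim, between 25.6 and 494 in GFP+ cells and between 55.6 and 90.5 in GFP- cells, and its ratios ran between -0.63 and 1.92.

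In HoxD, Hoxd13, which shapes digits and the urogenital tract, was lower in GFP+ cells on replicates 2 to 5. Its intensities were 2053, 3226, 2595, 1541 and 1360.0 in GFP+ cells, against 2236, 4611, 8229, 6096 and 5741 in GFP- cells. The intensities on replicate 1 were close, and the ratios were 0.41, -0.74, -1.25, -2.39 and -2.39 (mean -1.27 ± 1.18, SD, n = 5; -1.69 ± 0.83 over replicates 2 to 5, SD, n = 4). The second Hoxd13 probe was above 0 on replicates 1, 4 and 5, with a mean of 0.45.

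Hoxd4 had ratios of -4.02, 0.47, 0.50, 1.87 and 1.97 (mean 0.16 ± 2.44, SD, n = 5), with 158, 96.2, 183, 9941 and 45178 in GFP+ cells, against 4562, 36.0, 108, 1848 and 7908 in GFP- cells, of which 3 GFP- values were above background. Hoxd8, a central gene expressed in the embryonic kidney, had 5046, 120.3, 68864, 37.2 and 2406 in GFP+ cells, against 23655, 179548, 1769, 39.6 and 4021 in GFP- cells. Its ratios, -2.13, -10.30, 5.59, -0.13 and -1.11 (mean -1.62 ± 5.70, SD, n = 5), had the largest SD of the 36 tested Hox genes, and the arrays with the extreme values, replicates 2 and 3, lay on opposite sides of 0. Hoxd9 was also highest on replicate 3, with 9336, 354, 45193, 10847 and 3086 in GFP+ cells, against 19380.0, 1279, 2687, 2530.4 and 5686 in GFP- cells, and ratios of -1.004, -1.87, 4.39, 1.53 and -1.32 (mean 0.35 ± 2.61, SD, n = 5). The second Hoxd9 probe did not show this, with a ratio of -0.31 on replicate 3 and its highest, 4.17, on replicate 4 (mean 0.33).

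Hoxd10, the third Hox10 gene, was lower in GFP+ cells on replicate 2 alone. Its intensities were 2048, 394, 2238, 20018 and 15814 in GFP+ cells, against 1421, 5341, 693, 3222 and 8909 in GFP- cells, with ratios of 1.05, -3.79, 1.87, 2.12 and 0.25 (mean 0.30 ± 2.40, SD, n = 5). The Hox10 genes thus had no order of signs in common: Hoxa10, Hoxc10 and Hoxd10 were above 0 together on replicate 3 and on no other array. Hoxd3 had ratios of 2.41, -1.93, -2.30, 1.54 and -0.46 (mean -0.15 ± 2.08, SD, n = 5), and Hoxd12 stayed near even with ratios of 0.74, -0.32, 0.14, 0.33 and -0.47 (mean 0.08 ± 0.49, SD, n = 5). Hoxb2, above background in GFP- cells on 5 arrays and in GFP+ cells on 3, had ratios between -3.00 and 5.00. Among the members with weak or missing signal, Hoxd1 had ratios between -0.94 and 1.12. Hoxb1 was above background in no GFP- channel, so that no fold is given for it, and Hoxc8 reached 593 in GFP- cells on replicate 1 and was below background elsewhere.

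Without replicate 1, limma still called 0 Hox genes and 0 of all genes (0%) at an adjusted p of 0.05. At an unadjusted p under 0.05 there were then 8 of 36 Hox genes (22.2%), beside 11.5% of all genes, and the lowest adjusted p of a Hox gene was 0.326 (limma). The 8 genes were Hoxa9, Hoxb3, Hoxb5, Hoxb9 and Hoxc10, higher in GFP+ cells, and Hoxa7, Hoxb13 and Hoxd13, lower in GFP+ cells. With the sign of replicate 1 turned there were 13 (36.1%), beside 13.8% of all genes, and 0 called of all genes (0%), with a lowest adjusted p of 0.139 (limma). With array weights there were 7 (19.4%), beside 8.92% of all genes, and 0 called of all genes (0%). Leaving out replicate 2, 3, 4 or 5 left 0 of 36 Hox genes at an unadjusted p under 0.05 (limma). Beside these were 667, 673, 597 and 629 of all 17425 genes, in that order. The number of Hox genes at this level thus depended on which arrays were used, as did the number of all genes.

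Markers of collecting duct principal cells turned with the HoxB block. Of 6 markers (the water channels Aqp2, Aqp3 and Aqp4, the vasopressin receptor Avpr2 and the sodium channel subunits Scnn1b and Scnn1g), 1 was above 0 on replicate 1 and 5, 5, 5 and 4 were above 0 on replicates 2 to 5. Their median log2 ratios were -3.46, 4.50, 1.90, 1.29 and 0.23 on replicates 1 to 5. Summed over the list, intensities ran between 46592 and 572222 in GFP+ cells and between 19791 and 612260 in GFP- cells. The 4 thin limb markers had medians of -0.93, 1.16, 2.48, 2.98 and 1.84 and the 3 tested intercalated cell markers of -2.90, 5.12, -0.77, 0.99 and 2.08, so both were also lowest on replicate 1. The part of these cell types in the Hox ratios was not tested.

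**Figure D4:**
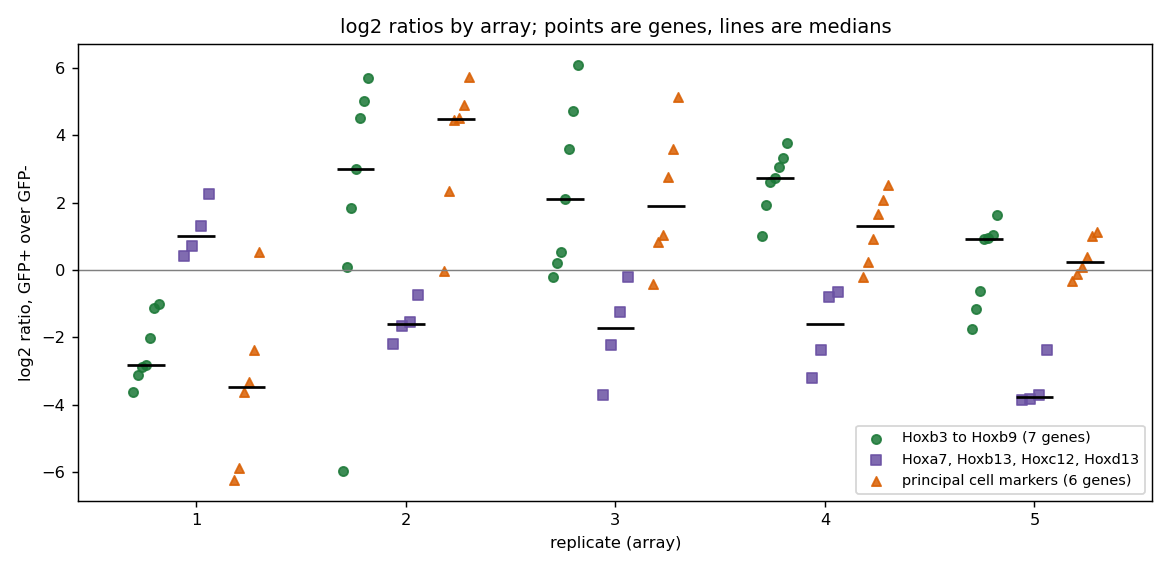
Log2 ratio, GFP+ over GFP-, on each array for the 7 genes Hoxb3 to Hoxb9 (green circles), for Hoxa7, Hoxb13, Hoxc12 and Hoxd13 (purple squares) and for 6 principal cell markers (orange triangles); black lines are medians. The circles and 5 of 6 triangles lie below 0 on replicate 1, where the squares lie above it; on replicates 2 to 5 the medians of circles and triangles lie above 0 and all squares lie below it. The squares were chosen for these signs, and the circles after their values were seen, so their places are a description.

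Markers of other cells gave signal too. Of 6 markers of the papillary surface and urothelium, 5 were above background on all 5 arrays in GFP+ cells and 6 in GFP- cells, with summed intensities between 6666 and 11795 in GFP+ cells and between 8895 and 29802 in GFP- cells. Of these, Krt14, a basal keratin, was below 0 on all arrays (mean -1.76 ± 1.10, SD, n = 5) and Upk3a, a uroplakin, above 0 on all arrays (mean 0.72 ± 0.48, SD, n = 5), and Upk1b had a mean of -1.37 ± 1.43 (SD, n = 5). Krt5, the other basal keratin of the list, went the other way on average (mean 0.68 ± 1.43, SD, n = 5) and was below 0 on replicate 2 alone. Fibroblast markers had medians of 0.35, -0.42, -0.53, -0.93 and -1.56 on replicates 1 to 5, and 5 of 5 were above background on all arrays in GFP+ cells and 4 in GFP- cells. Their summed intensities ran between 3719 and 7387 in GFP+ cells and between 3401 and 59228 in GFP- cells. Leukocyte markers had medians of 0.49, -0.05, -0.09, -1.08 and -4.77 and endothelial markers of 0.65, -1.17, 0.92, -1.01 and -0.98. The 3 proximal tubule markers, of a segment that lies outside the papilla, were also above background on all arrays in both channels, and by intensity over background alone the labelled tissue is therefore not set apart.

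Different probes of a Hox gene often disagreed. For the 10 Hox genes with a second probe named for that gene alone, both probes had the same sign in 27 of 50 comparisons over genes and arrays, and their means had the same sign in 6 of 10 genes. The second probes of Hoxa13 and Hoxd3 were too dim to pass the filter, with no GFP+ channel above background; among the other 8 genes the same sign was seen in 23 of 40 comparisons and in 4 of 8 means. Hoxb9 was the 1 gene of the 10 whose probes had the same sign on all 5 arrays: the second probe had ratios of -0.95, 2.51, 4.72, 2.40 and 0.76. For Hoxb6 the second probe had -2.95, 2.98, 5.77, 0.56 and -1.07, negative on replicate 1 like the first. For Hoxb8 the second probe had 1.68, 3.15, -0.01, 0.02 and 2.20, the opposite sign on 4 of 5 arrays. The values of the other genes rest on the brightest probe, which was used throughout.

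Of the TALE cofactors, 7 of 9 were tested, limma called 0, and 1 had a mean above 0, with a list median of -0.13. Those with the lowest unadjusted p were Pbx2 (mean -2.23 ± 4.24) and Meis3 (mean -0.82 ± 1.56, SD, n = 5 each), in both of which replicate 4 was the lowest. All 24 Polycomb and trithorax genes were tested, and limma called 0. At an unadjusted p under 0.05 there were 3, beside 4.94% of all genes, all lower in GFP+ cells.

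These 3 were Eed and Suz12, core subunits of Polycomb repressive complex PRC2, and Pcgf2, a subunit of PRC1. Eed had ratios of -2.72, -1.45, -0.86, -2.28 and -2.07 (mean -1.88 ± 0.73, SD, n = 5). Suz12 had -0.87, -0.93, -1.14, -1.26 and -0.60 (mean -0.96 ± 0.26, SD, n = 5) and was above background in GFP+ cells on 2 arrays and in GFP- cells on 4. Pcgf2 had -2.89, -0.96, -5.80, -10.71 and -3.28 (mean -4.73 ± 3.76, SD, n = 5). The signs of these 3 genes did not turn on replicate 1. They were picked by a low p over all 5 arrays, which favours genes of 1 sign, so this is a description. Wdr5, a subunit of the trithorax-type methyltransferase complexes, was above 0 on all arrays, with 0.68, 0.48, 0.47, 2.21 and 0.98 (mean 0.96 ± 0.73, SD, n = 5). Over the whole list the median was 0.03, with 13 of 24 means above 0. The other PRC2 genes of the list were not lower in the same way. Ezh1 had a mean of 0.82 ± 2.16, Ezh2 of 0.14 ± 1.98 and Jarid2 of -0.16 ± 0.73 (SD, n = 5 each).

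Of 8 partners and targets of Hox proteins in the kidney, 6 were tested, limma called 0, and 3 had a mean above 0 (list median 0.33). Itga8, the integrin chain that the metanephric mesenchyme uses to induce Gdnf, was above 0 on all arrays, with 0.86, 0.53, 0.70, 0.92 and 0.75 (mean 0.75 ± 0.15, SD, n = 5). Gdnf, the growth factor that attracts the ureteric bud, was below 0 on all arrays, with -0.17, -0.08, -0.53, -0.80 and -1.34 (mean -0.58 ± 0.51, SD, n = 5). It was dim, above background in GFP+ cells on 3 of 5 arrays. Before normalization its GFP+ intensity on replicate 2 was the higher of the pair (120 against 84.0). Eya1, a partner of the Hox11 proteins, had -0.24, 2.71, -0.42, 2.18 and 1.90 (mean 1.23 ± 1.45, SD, n = 5). Each of these 3 had an unadjusted p above 0.05.

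Evx1 and Evx2, even-skipped type homeobox genes next to Hoxa13 and Hoxd13, were the 2 tested members among 12 noncoding and other genes of the clusters, of which 4 had a probe. Evx1 had ratios of -1.30, -1.43, -0.83 and -1.74 on replicates 2 to 5 (mean -1.32 ± 0.38, SD, n = 4), its spot on replicate 1 having been marked by the authors' software, and it was at an unadjusted p under 0.05. Evx2 had -0.03, -1.01, -0.73, -0.42 and -3.55 (mean -1.15 ± 1.39, SD, n = 5). Both were below 0 on every array that was kept, as Hoxa13 was on 4 of 5 arrays and Hoxd13 on replicates 2 to 5. The marked Evx1 spot on replicate 1 had 706 in GFP+ cells, against 215 in GFP- cells. Before normalization the GFP+ intensity of Evx2 on replicate 4 was the higher of the pair (6986 against 6473). Of 10 ParaHox genes and upstream regulators 8 were tested, limma called 0 and 1 had a mean above 0 (list median -0.22). Those with the lowest unadjusted p were Pdx1, with a mean of -1.23 ± 1.79, and Rarg, a retinoic acid receptor, with -0.91 ± 1.35 (SD, n = 5 each).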

How the data were processed

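Each of 5 two-colour Agilent arrays compared amplified cDNA of GFP+ and GFP- papilla cells of 1 replicate. Agilent Feature Extraction was used, per the submitters' processing notes, with its version and its background and dye corrections not given in the sources used here. Deposited tables give, per the file headers, an intensity for each channel on a linear scale, a log10 ratio and a p-value for that array alone. The deposited log10 ratio served as an alternative and the deposited p-value was not used.

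An offset of 50 was added to the intensities (the design's normexp correction needs local background signals, which were not used here). Log2 ratios were normalized by loess within each array (span 0.3, control probes and spots marked by the authors' software at weight 0). A gene was tested where a probe reached 3 times the negative control probe in at least 1 channel on at least 3 arrays, and the brightest such probe stood for it. The test of these ratios against 0 used limma 3.58.1 (R 4.3.3; lmFit, eBayes, two-sided, Benjamini-Hochberg over 17425 genes, threshold 0.05). The number of arrays limits the precision. The fit, but not the normalization, was tested on simulated log2 ratios. A single gene symbol was found for 33477 non-control probes (817 of them through a RefSeq accession), several for 45 and none here for 7650. Each array holds both populations of 1 replicate and so acts as the block.

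Members, lists and the special place of replicate 1 were chosen with earlier results of these data known. Values on every array were given for Hox genes above background in both channels on at least 4 arrays, with 1 sign on all arrays or with an unadjusted p under 0.05, and for the Hox10 and Hox11 genes, Hoxb6, Hoxb7, Hoxd8 and Hoxd9. Hoxd4 and Hoxb2 were added after their values were seen. The values of 1 Hox gene are not reported here; it stays in the counts. Of other lists, at most 2 members of lowest unadjusted p and those with 1 sign on all arrays were named. Krt5, Ezh1, Ezh2 and Jarid2 were added after their values were seen. A Hoxb2 probe annotated to 2 genes was left out, as were 2 probes tied to Hox genes by the platform annotation alone. Alternatives were other normalizations, offsets, filters, probe rules, array weights, separate channels, the sign of replicate 1 and leaving out each replicate.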

Additional observations from a re-analysis of the deposited data

Results flagged for a closer look

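Some single values lay far from the other 4 of the same gene, by the gap to the nearest value over the whole range. Among 51 sets of values examined there were 5, and chance gives about 1 in 20. Hoxa4 stood apart at -2.05 on replicate 5, where the other 4 ratios were between -0.53 and -0.03. Hoxa5 stood apart at 5.52 on replicate 3, the array with its brightest signal in both channels. Hoxa7 stood apart at 2.27 on replicate 1, against values between -3.83 and -2.21 on the others. Hoxc4 stood apart at -0.78 on replicate 3, against values between 0.30 and 0.66. Hoxd4 stood apart at -4.02 on replicate 1, against values between 0.47 and 1.97. For Hoxa7 and Hoxd4 the array that stood apart was replicate 1. Both are among the 12 Hox genes, given above, with the other sign on replicate 1 from replicates 2 to 5.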

How the results depend on the processing

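Limma called 0 Hox genes and 0 of all genes under each of the 16 alternatives, and the lowest adjusted p of a Hox gene in any of them was 0.139 (limma, sign of replicate 1 turned). The median of the Hox genes stayed between 0.08 and 0.38, and between 0.16 and 0.29 with 1 array left out. The array itself pairs GFP+ and GFP- cells; with no replicate block, both channels being fitted as separate samples, the Hox median was 0.26 and limma called 0. Between 25 and 38 Hox genes were tested, depending on the filter. At an unadjusted p under 0.05 the count of all genes was 861, against 1999 without replicate 1, 2407 with its sign turned, 1555 with array weights and 574 with no replicate block.

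Of 560 values of single genes under the alternatives, 524 kept their sign and 36 had the other, 26 of them with 1 array left out; 18 genes had no change of sign and 18 had at least 1. Under the other settings the sign changed for Hoxa2 (0.014 with the deposited ratio), Hoxa6 (-0.078 with an offset of 1) and Hoxc10 (-0.42 as the mean of its probes). With array weights it changed for Hoxb2 (-0.24) and Hoxd1 (-0.11), and with the sign of replicate 1 turned for Hoxa3 (0.23), Hoxb2 (-1.38), Hoxd1 (-0.39), Hoxd10 (-0.12) and Hoxd12 (-0.21). With 1 array left out the mean crossed 0 for Hoxa2 (-0.35 to 0.20), Hoxa3 (-0.52 to 0.090), Hoxa5 (-0.31 to 1.28), Hoxa6 (-0.50 to 0.32), Hoxa10 (-0.51 to 0.084), Hoxb2 (-0.47 to 1.53), Hoxb6 (-0.055 to 1.15), Hoxb7 (-0.21 to 2.22), Hoxc6 (-0.59 to 1.48), Hoxc9 (-1.37 to 0.54), Hoxd1 (-0.21 to 0.31), Hoxd3 (-0.79 to 0.39), Hoxd4 (-0.29 to 1.20), Hoxd8 (-3.42 to 0.56), Hoxd9 (-0.66 to 0.90), Hoxd10 (-0.16 to 1.32) and Hoxd12 (-0.079 to 0.22). In 13 more genes it kept its sign and moved by over 1.5 times: Hoxa4 (-0.67 to -0.17), Hoxa7 (-3.24 to -1.72), Hoxa9 (1.39 to 3.10), Hoxb4 (0.28 to 1.99), Hoxb5 (1.83 to 3.79), Hoxb8 (-2.46 to -0.44), Hoxb9 (0.52 to 1.79), Hoxb13 (-2.06 to -0.96), Hoxc4 (0.16 to 0.52), Hoxc5 (0.83 to 1.76), Hoxc10 (0.66 to 1.84), Hoxc12 (-1.60 to -0.31) and Hoxc13 (0.24 to 0.87). The cause of these changes was not tested.

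Signal over background limits Hoxa11, Hoxb1, Hoxc13 and Hoxd1, whose ratios rest on channels close to the negative control. A dye effect common to all arrays would be part of every ratio, since no dye was swapped.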
